A study of Homo sapiens with 8 samples.

Results

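Integrin and laminin genes were followed in SJRH30 cells, an established line of alveolar rhabdomyosarcoma, a muscle-lineage tumour, over 24 h in 1% oxygen. The genes were chosen by name alone, as the probe sets whose single annotated symbol is that of an integrin alpha or beta chain or of a laminin alpha, beta or gamma chain. This gave 69 probe sets of 22277 in the table, which stand for 34 genes of 11963. Of these, 23 encode integrin chains and 10 laminin chains. The remaining gene, ITGB3BP, fits the naming pattern but encodes a centromere protein that was first found by its binding to the integrin beta chain ITGB3. ITGA11, ITGAD and LAMA3 were not analysed here, nor was ITGB6, whose probe sets carry a second symbol.

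The series compared cells before hypoxia (0 h) with cells held for 6, 12 and 24 h in a chamber at 1% oxygen, with 2 arrays for each of the 4 times and 8 in all, to find the genes that respond at each time. All groups were the same unmodified line in the same serum-containing medium, so the data describe 1 line. Normoxic cultures of matching age were not analysed here, and time in culture and time in hypoxia therefore cannot be told apart. The replicates are called biological, but nothing states how the cultures were separated, so p-values measure the spread between these arrays. Messenger RNA was measured on a 3′-based Affymetrix array, and each value below is the authors' log2 summary of a probe set.

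Integrins are surface receptors made of an alpha and a beta chain. The pair decides what is bound, such as laminin, collagen or proteins that carry the Arg-Gly-Asp (RGD) motif, of which fibronectin and vitronectin are the best known. Laminins are trimers of an alpha, a beta and a gamma chain and form the base of the basement membrane, the sheet of matrix that surrounds muscle fibres and vessels. In skeletal muscle the laminin receptor that contains ITGA7 and ITGB1 ties the fibre to a laminin that contains LAMA2.

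The hypoxic response itself was present. The mitophagy receptor gene BNIP3 was 2.96, 3.33 and 3.31 above 0 h on the log2 scale at 6, 12 and 24 h, and all 11 measured genes of a list of core targets of the hypoxia-inducible factors rose at all 3 times. The labels describe the cells as muscle fibroblasts. Of 11 measured muscle lineage markers 9 lay in the brighter 50% of all genes, the brightest of them ACTC1 (mean 13.75), MYOD1 (11.99) and CHRNA1 (11.52), and of 10 fibroblast markers 3 did, COL3A1, COL1A1 and FBLN1, with COL3A1 at 10.85 but DCN at 5.21 and POSTN at 3.66. None of 10 epithelial, 1 of 9 endothelial (TEK) and none of 9 leukocyte and platelet markers lay there. The interquartile range over genes was 3.83 and 3.77 on the 12 h arrays and 3.91 to 3.97 on the other 6. Probe sets of poly-A RNA added during preparation averaged 7.27 on both 0 h arrays, 7.60 to 7.62 at 6 h, 7.60 to 7.61 at 12 h and 7.77 to 7.80 at 24 h. The part of either in the results below was not tested.

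Most integrin and laminin genes were not called changed, as was true of all genes, while a few were, some higher and some lower. A gene was called changed at an adjusted p under 0.05 in limma, a linear model fitted to all 11963 genes with Benjamini-Hochberg adjustment, in which each gene is represented by its brightest probe set. After 6 h 4 of the 34 genes (11.8%) were called, against 3.54% of all genes, all 4 of them higher (2.32% of all genes were called higher and 1.22% lower). After 12 h 7 (20.6%) were called, against 18.4% of all genes, with 5 higher and 2 lower (14.7% and 5.88%, against 7.13% and 11.3% of all genes). After 24 h 9 (26.5%) were called, against 17.7%, with 6 higher and 3 lower (17.6% and 8.82%, against 8.59% and 9.15%). The median change of the members was 0.03, 0.06 and 0.03 at 6, 12 and 24 h, beside -0.02, 0.00213 and -0.01 for all genes. In all, 9 members (26.5%) were called in at least 1 comparison with 0 h, near the 24.3% of all genes. The other 25 were called in none of the 6 comparisons between times. Of those 25, 22 had values within 0.5 of each other over all 8 arrays. Shares of all genes for these last counts are not given here, and an uncalled gene is not shown to be unchanged. The 3 comparisons with 0 h share the 0 h arrays and are not independent. With 2 arrays a time, arrays that do not overlap with 0 h are common. At 6, 12 and 24 h this held for 6606, 7626 and 7051 of 11963 genes, and for 19, 21 and 20 of the 34 members. The lack of overlap given for single genes below therefore adds little by itself. The counts depended on single arrays: the 6 h count of 4 became 0 without 0 h replicate 1 or 6 h replicate 1, 1 without 0 h replicate 2 and 2 without 6 h replicate 2, and the counts of 7 and 9 at 12 and 24 h both became 4 without 0 h replicate 2. The 24 h count was 6 without 0 h replicate 1.

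**Figure D1:**
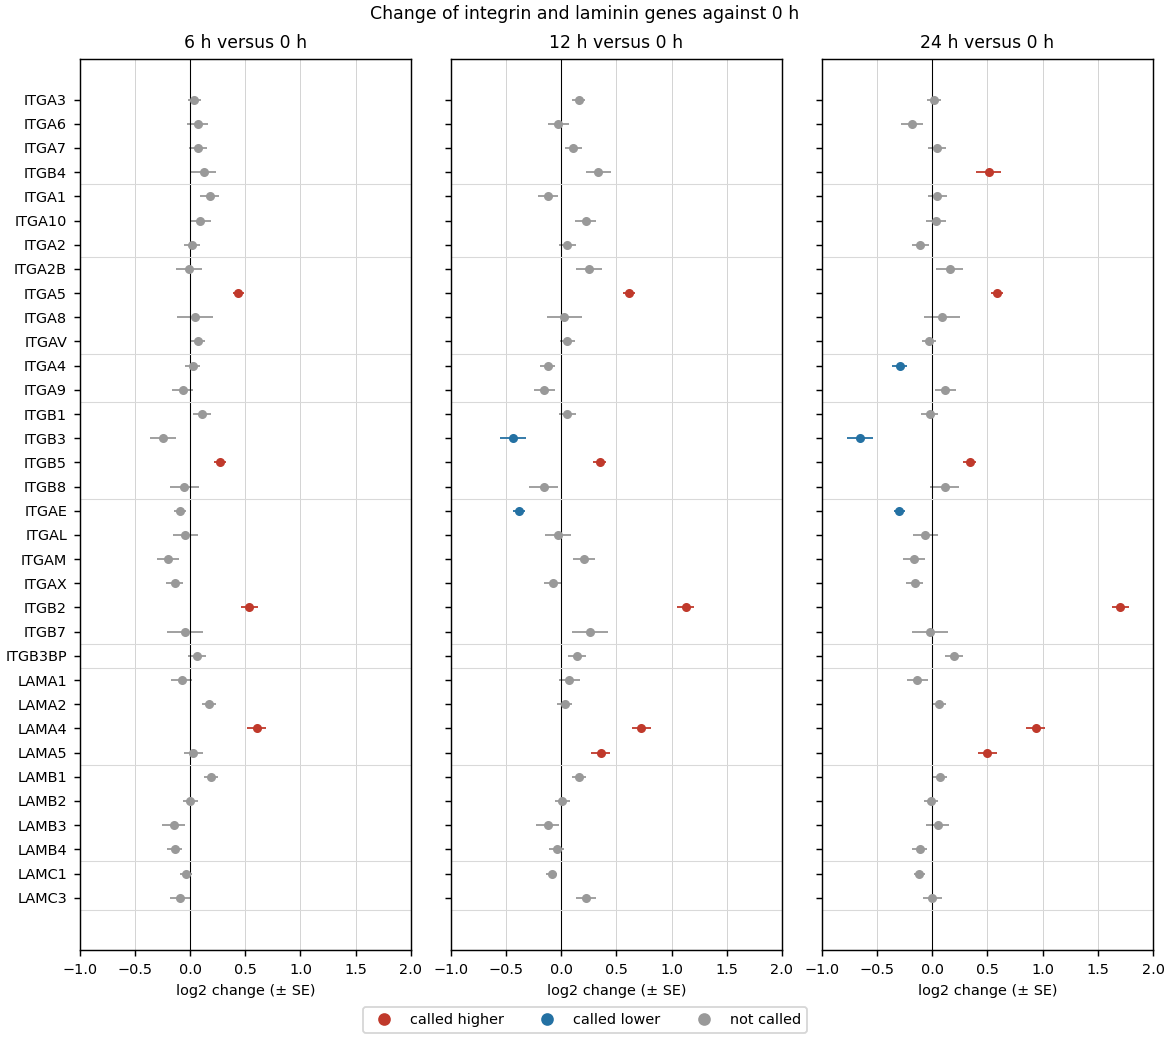
Change of the 34 genes on the log2 scale against 0 h, at 6, 12 and 24 h (points: limma estimate; bars: standard error, 2 arrays per time). Genes are grouped by role, integrin chains above and laminin chains below; red marks genes called higher and blue genes called lower. Most points lie near 0, and ITGB2 moves farthest right, to 1.70 at 24 h.

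The largest change was in ITGB2, the beta chain shared by the integrins of leukocytes. Its values were 7.75 and 7.67 at 0 h, 8.31 and 8.17 at 6 h, 8.83 and 8.84 at 12 h and 9.33 and 9.49 at 24 h. Each later time lay above the one before it, with no overlap between any of the times. Against 0 h it was higher by 0.53 ± 0.08 at 6 h (SE; adjusted p = 0.0111), 1.13 ± 0.08 at 12 h (adjusted p = 0.000157) and 1.70 ± 0.08 at 24 h (adjusted p = 1.3e-05), or 1.45-, 2.18- and 3.25-fold. Among all 11963 genes this was rise number 95 by size at 6 h, 37 at 12 h and 19 at 24 h. From 6 to 24 h ITGB2 rose by a further 1.17 ± 0.08 (adjusted p = 0.000949), number 4 of all genes. Between these times 5 of the 11 genes of the hypoxia list were also called higher and 0 lower. That is 45.5% of the list called higher, against 1.85% of all genes. Changes over the list ran from -0.10 to 0.72, with a median of 0.17. BNIP3 differed by 0.35 ± 0.07 and VEGFA, the angiogenic factor gene, by -0.06 ± 0.09. The ITGB2 steps from 6 to 12 h (0.59 ± 0.08, adjusted p = 0.0468) and from 12 to 24 h (0.58 ± 0.08, adjusted p = 0.0475) were close to the threshold. In each step ITGB2 was the 1 member called of 34, against 0.201% and 0.242% of all genes, and both calls were lost without any single array other than 12 h replicate 1 (adjusted p from 0.0734 to 0.312 and from 0.0926 to 0.141). The comparisons at 12 and 24 h with 0 h stayed called without any 1 array. The 6 h call was lost without 0 h replicate 1 (adjusted p = 0.0793), 0 h replicate 2 (0.117) or 6 h replicate 1 (0.115).

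The alpha chains that pair with ITGB2 were not called at any time. At 24 h the change of ITGAL, the alpha chain of a lymphocyte integrin, was -0.06 (95% interval -0.33 to 0.21). That of ITGAM, found on myeloid cells, was -0.17 (-0.40 to 0.06), and that of ITGAX, which marks dendritic cells and macrophages, was -0.16 (-0.34 to 0.02). ITGAX lay in the dimmest 25% of all genes, with values of 4.20 to 4.48 over the 8 arrays. Of 9 measured leukocyte and platelet markers, 0 were called in any comparison with 0 h, while 24.3% of all genes were called in at least 1. Of these markers 6 lay in the dimmest 25%. The mean over the list was 4.71 to 4.77 at 0 h, 4.68 to 4.69 at 6 h, 4.79 to 4.81 at 12 h and 4.70 to 4.77 at 24 h. Among them PTPRC, which encodes the pan-leukocyte protein tyrosine phosphatase, had 3.91 and 3.51 at 24 h, against 3.54 and 3.49 at 0 h, and the myeloid transcription factor gene SPI1 4.09 and 4.07 at 24 h, against 4.07 and 3.99 at 0 h. ITGB2 was read by a single probe set, and its gene overlaps the antisense gene ITGB2-AS1 in RefSeq (GRCh38.p14, used for names and neighbours).

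**Figure D2:**
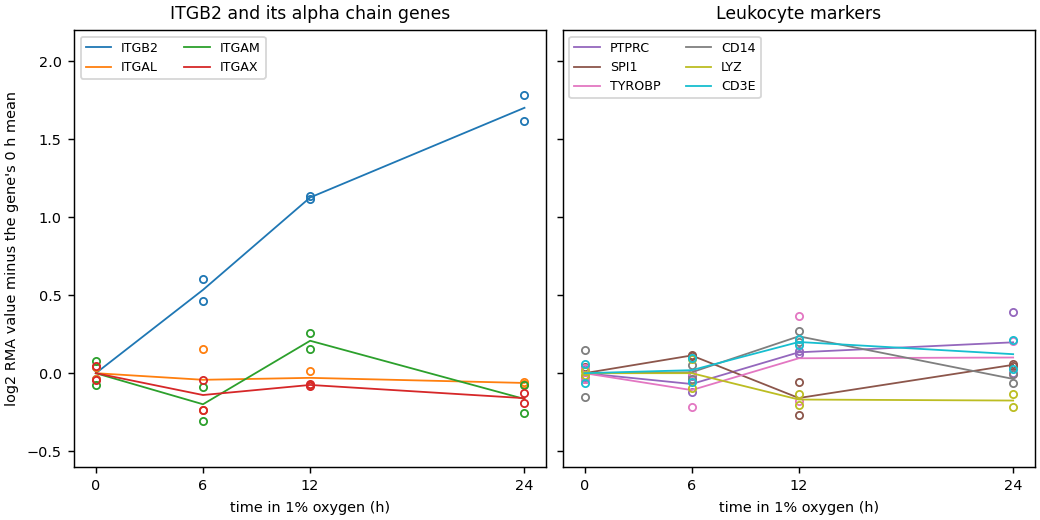
Log2 value of each array minus the gene's own mean at 0 h, over the hours in 1% oxygen, for ITGB2 with its alpha chain genes (left) and for 6 leukocyte markers (right). Circles are single arrays and lines join the means of the 2 arrays of a time. ITGB2 is 1.70 above its 0 h mean at 24 h, and the 95% intervals of ITGAL, ITGAM and ITGAX at that time all include 0.

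The other leukocyte chain called was ITGAE, whose product marks lymphocytes that stay in epithelia, and it fell. Its values were 10.56 and 10.63 at 0 h, 10.50 and 10.51 at 6 h, 10.20 and 10.22 at 12 h and 10.29 and 10.30 at 24 h. Both 12 h and both 24 h arrays lay below all 0 h and 6 h arrays. The change was -0.38 ± 0.05 at 12 h (adjusted p = 0.00384) and -0.30 ± 0.05 at 24 h (adjusted p = 0.00938, but 0.084 without 0 h replicate 2). Its partner ITGB7 was at -0.02 at 24 h (95% interval -0.40 to 0.36). The ITGAE gene overlaps HASPIN and P2RX5 in RefSeq, and which transcript its single probe set reads was not tested. Other called members described below also overlap annotated genes. Among them are ITGB4 with GALK1, ITGA4 with CERKL, ITGA5 with GPR84-AS1, LAMA4 with LAMA4-AS1 and LAMA5 with LAMA5-AS1. The part of these overlaps in the results was not tested.

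Among receptors for RGD-containing ligands, ITGA5 and ITGB5 rose and ITGB3 fell, while ITGAV was not called. ITGA5 pairs with ITGB1 alone, and the pair is the main fibronectin receptor. It had 7.81 and 7.87 at 0 h, 8.30 and 8.25 at 6 h, 8.44 and 8.46 at 12 h and 8.42 and 8.43 at 24 h. All 6 hypoxic arrays lay above both 0 h arrays, and the 12 and 24 h arrays lay close together. The rise was 0.44 ± 0.05 at 6 h (adjusted p = 0.00557), 0.61 ± 0.05 at 12 h (adjusted p = 0.000542) and 0.58 ± 0.05 at 24 h (adjusted p = 0.000508), or 1.5-fold at the last time. The 6 h call was lost without 0 h replicate 1 (adjusted p = 0.0787) or 6 h replicate 1 (0.0735). ITGB1, the beta chain shared by most integrins of muscle and fibroblasts, had 12.33 and 12.37 at 0 h, 12.52 and 12.40 at 6 h, 12.38 and 12.43 at 12 h and 12.42 and 12.23 at 24 h. Its hypoxic arrays surrounded the 0 h arrays at 24 h, and the change then was -0.02 (95% interval -0.20 to 0.16).

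ITGB5 and ITGB3 both pair with ITGAV, in receptors for vitronectin, and they moved in opposite directions. ITGB5 had 10.64 and 10.58 at 0 h, 10.85 and 10.92 at 6 h, 10.97 and 10.95 at 12 h and 10.94 and 10.96 at 24 h, with every hypoxic array above both 0 h arrays. It was higher by 0.27 ± 0.06 at 6 h (adjusted p = 0.0438), 0.35 ± 0.06 at 12 h (adjusted p = 0.00624) and 0.34 ± 0.06 at 24 h (adjusted p = 0.00635). The 6 h call was lost without any of the 4 arrays compared or without either 12 h array (adjusted p from 0.0593 to 0.268), and those at 12 and 24 h without 0 h replicate 2 (adjusted p = 0.0595 and 0.0616). ITGB3 had 7.36 and 7.20 at 0 h, 6.97 and 7.09 at 6 h, 6.80 and 6.89 at 12 h and 6.45 and 6.80 at 24 h. Each hypoxic array lay below both 0 h arrays, and the 24 h arrays were the farthest apart. It fell by 0.44 ± 0.12 at 12 h (adjusted p = 0.0388) and by 0.66 ± 0.12 at 24 h (adjusted p = 0.00893), or 1.58-fold lower, and was at -0.25 at 6 h (adjusted p = 0.309). The 12 h call was lost without any of the 0, 6 or 12 h arrays (adjusted p from 0.0628 to 0.197), and the 24 h call without 0 h replicate 1 (0.0708). ITGAV itself lay between 12.15 and 12.35 on all arrays and differed by -0.03 at 24 h (95% interval -0.18 to 0.12). The other members of this group, ITGA8, the platelet chain ITGA2B and the ITGAV partner ITGB8, were not called.

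**Figure D3:**
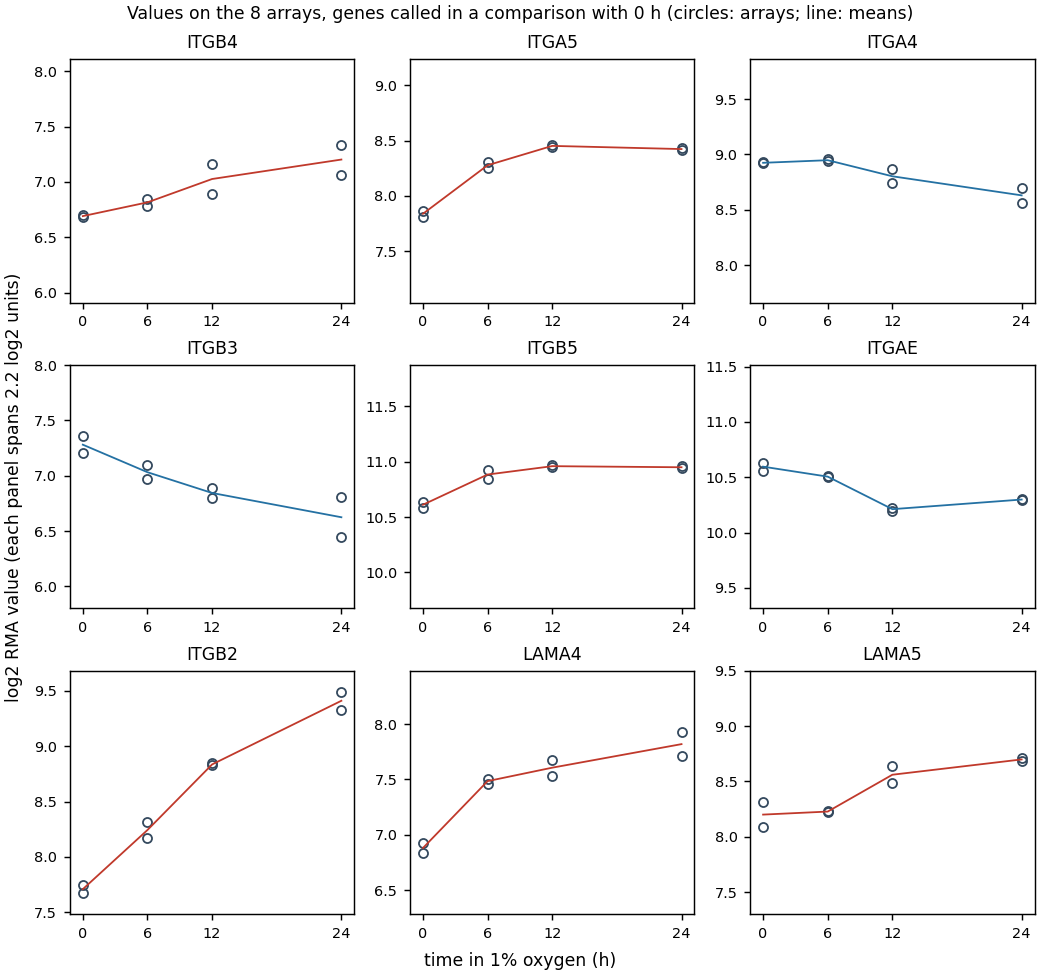
Values of the 9 genes called in at least 1 comparison with 0 h, by hours in 1% oxygen (circles: the 2 arrays of a time; lines: their means; every panel spans the same number of log2 units, at its own level). ITGA5, ITGB5 and LAMA4 are above both 0 h arrays at every hypoxic time, and ITGB3 is below them at every hypoxic time.

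Of the receptors for laminin, 1 of 4 chain genes was called, ITGB4, the beta chain that pairs only with ITGA6 and anchors epithelial cells in hemidesmosomes. At 24 h this is 25% of 4 genes, against 17.7% of all genes, and 4 genes are too few to tell these shares apart. ITGB4 had 6.70 and 6.68 at 0 h, 6.78 and 6.85 at 6 h, 6.89 and 7.16 at 12 h and 7.07 and 7.34 at 24 h. All hypoxic arrays lay above the 0 h arrays, with replicates farther apart at 12 and 24 h than at 0 and 6 h. It was higher by 0.51 ± 0.11 at 24 h (adjusted p = 0.0195) and at 0.34 at 12 h (adjusted p = 0.0772). The 24 h call was lost without 0 h replicate 1, 0 h replicate 2 or 24 h replicate 2 (adjusted p = 0.0935, 0.104 and 0.0829). Of 10 epithelial markers, EPCAM alone was called at 24 h (0.41), or 10% of that list, against 17.7% of all genes. The mean over that list was 5.02 to 5.06 at 24 h, against 4.95 to 5.03 at 0 h. The part of these markers in the ITGB4 result was not tested. ITGA6 was at -0.18 (95% interval -0.41 to 0.04), ITGA7, the laminin receptor chain of muscle, at 0.04 (-0.15 to 0.23), and ITGA3, a receptor chain for epithelial laminin, at 0.02 (-0.13 to 0.16). A second probe set of ITGA6 fell by 0.38 at 12 h (adjusted p = 0.0221 over all probe sets), when the brightest was at -0.03 (adjusted p = 0.883 over all genes).

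ITGA4, whose product binds fibronectin and the vascular adhesion molecule VCAM1 and has a part in the fusion of muscle cells, had 8.93 and 8.92 at 0 h, 8.96 and 8.94 at 6 h, 8.87 and 8.74 at 12 h and 8.69 and 8.57 at 24 h. The 0 and 6 h arrays lay together and the 24 h arrays below all of them. It was lower at 24 h by 0.29 ± 0.07 (adjusted p = 0.0242), which was lost without 0 h replicate 1 (0.125), 0 h replicate 2 (0.121) or 24 h replicate 2 (0.0836). Both of its other probe sets were at -0.15 at 24 h and not called. ITGA9, with which ITGA4 shares a subfamily, was at 0.12, and none of the 3 collagen receptor chain genes ITGA1, ITGA2 and ITGA10 was called, with changes at 24 h from -0.11 to 0.05. ITGB3BP was at 0.20 at 24 h (adjusted p = 0.133).

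Of the 10 laminin chain genes 1 was called at 6 h and 2 at 12 and 24 h, all higher, or 10%, 20% and 20%, against 3.54%, 18.4% and 17.7% of all genes, so the last 2 shares lie near that of all genes. The 2 are LAMA4 and LAMA5, and laminin alpha chains carry the main sites that receptors bind. LAMA4, the alpha chain of laminin in vessel walls, fat and developing muscle, had 6.92 and 6.84 at 0 h, 7.51 and 7.46 at 6 h, 7.53 and 7.68 at 12 h and 7.93 and 7.71 at 24 h. All hypoxic arrays lay above the 0 h arrays. The rise was 0.60 ± 0.09 at 6 h (adjusted p = 0.0105), 0.73 ± 0.09 at 12 h (adjusted p = 0.00202) and 0.94 ± 0.09 at 24 h (adjusted p = 0.000499), or 1.92-fold at 24 h. The 6 h call was lost without any of the 4 arrays compared (adjusted p from 0.0753 to 0.114), and the later ones were kept without any 1 array. Of 9 endothelial markers, TEK alone was called at 24 h (0.37), or 11.1% of that list, against 17.7% of all genes. The mean over that list was 5.36 to 5.41 at 24 h, against 5.22 to 5.28 at 0 h. The part of these markers in the LAMA4 result was not tested. LAMA5, an alpha chain of most adult basement membranes, had 8.31 and 8.09 at 0 h, 8.23 and 8.22 at 6 h, 8.48 and 8.64 at 12 h and 8.68 and 8.71 at 24 h. The 6 h arrays lay between the 0 h arrays, and the 12 and 24 h arrays lay above them. It was at 0.03 at 6 h and higher by 0.36 ± 0.09 at 12 h (adjusted p = 0.0264) and 0.50 ± 0.09 at 24 h (adjusted p = 0.00774). Without 0 h replicate 2, the lower of the 0 h arrays, neither call held (adjusted p = 0.153 and 0.0515), and the 12 h call was also lost without 12 h replicate 2 (0.113) or either 6 h array (0.0505 without replicate 1). From 6 to 24 h LAMA5 and ITGB2 were the 2 members called, against 2.78% of all genes, LAMA5 by 0.47 ± 0.09 (adjusted p = 0.0373), a call lost without any of the 4 arrays compared (adjusted p from 0.101 to 0.211). LAMA2, the alpha chain of muscle fibres, was at 0.06 at 24 h (95% interval -0.09 to 0.21), and LAMA1, of embryonic basement membranes, at -0.13 (-0.35 to 0.08).

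None of the measured laminin beta and gamma chain genes was called with its brightest probe set (18.4% of all genes were at 12 h and 17.7% at 24 h). LAMB1 had 9.83 and 9.86 at 0 h, 10.05 and 10.02 at 6 h, 10.03 and 9.98 at 12 h and 9.98 and 9.85 at 24 h, with all hypoxic arrays but 24 h replicate 2 above the 0 h arrays. Its change was 0.19 at 6 h (adjusted p = 0.147) and 0.07 at 24 h. LAMB2 was at -0.01, LAMB3 at 0.05 and LAMB4 at -0.11 at 24 h. LAMC1, the gamma chain of most laminins, had 11.68 and 11.65 at 0 h, 11.62 and 11.64 at 6 h, 11.57 and 11.58 at 12 h and 11.53 and 11.56 at 24 h, which gave -0.12 at 24 h (adjusted p = 0.173). Its second probe set, however, had 9.16 and 9.06 at 0 h, 9.09 and 9.10 at 6 h, 8.88 and 8.87 at 12 h and 8.70 and 8.72 at 24 h. In a fit of all 22215 probe sets that are not controls this one fell by 0.23 at 12 h (adjusted p = 0.0373) and by 0.39 at 24 h (adjusted p = 0.00551). LAMC3 was not called.

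In that fit 3 of the 69 member probe sets were called higher and 0 lower at 6 h (all probe sets: 1.85% higher, 0.855% lower), 9 and 4 at 12 h (6.36% and 9.85%), and 9 and 5 at 24 h (6.86% and 7.8%). The probe set of ITGB2 was called in neither step there, from 6 to 12 h or from 12 to 24 h (adjusted p = 0.0575 and 0.0509). Of 4 probe sets of ITGB5, all had positive changes at all 3 times, and 3 were called at 24 h, at 0.65, 0.34 and 0.25. None of the 4 was called at 6 h in that fit, the brightest with an adjusted p of 0.0601. Of 5 of LAMA4, 2 were called at 24 h (0.94 and 0.47), a further one at 12 h (0.33), and the other 2 were called at no time, 1 of them at -0.02 at 24 h. ITGB3 was read by 7 probe sets that disagreed: the brightest fell at 12 and 24 h and another at 24 h (-0.24, adjusted p = 0.0326), but a further one was higher at 12 h (0.29, adjusted p = 0.0193). With the mean of all 7, ITGB3 was -0.04 at 12 h (adjusted p = 0.613) and -0.23 at 24 h (0.0286), so that its 12 h call rests on the brightest probe set. With such means ITGB4 and ITGA4 lost their calls at 24 h (0.20 and -0.20, adjusted p = 0.29 and 0.121), and LAMA4 was at 0.17 at 6 h (0.145), 0.32 at 12 h and 0.43 at 24 h, the later 2 still called.

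**Figure D4:**
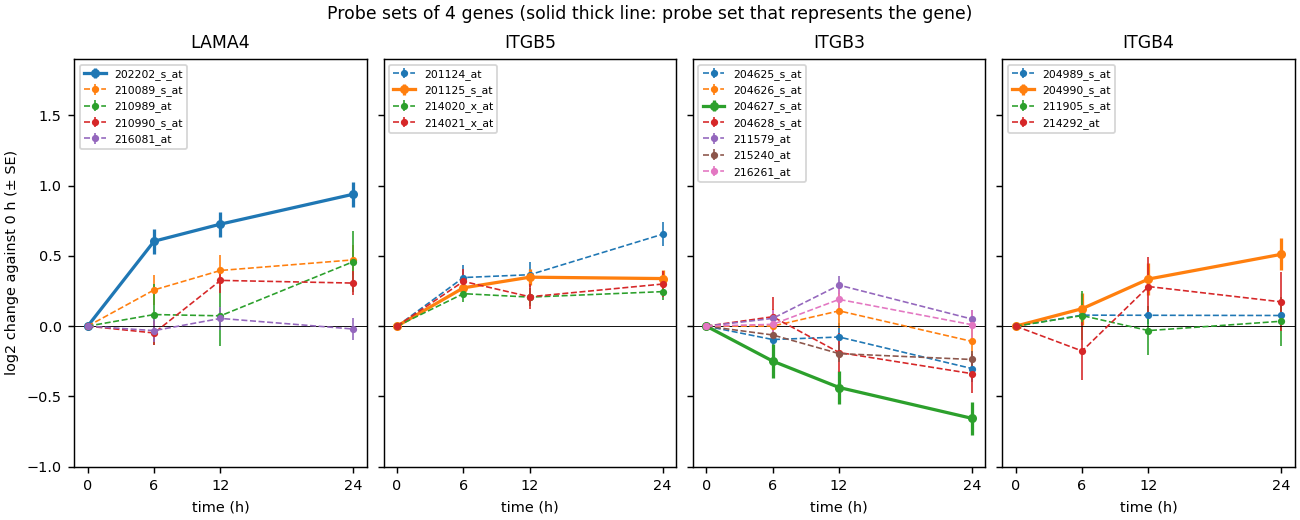
Log2 change against 0 h of each probe set of LAMA4, ITGB5, ITGB3 and ITGB4, by hours in 1% oxygen (bars: standard error of the fit of all probe sets; thick solid lines: the probe set that represents the gene). The 4 probe sets of ITGB5 run together above 0, while those of ITGB3 spread from -0.66 to 0.05 at 24 h.

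Promoters of member genes were read for the core of the sequence bound by hypoxia-inducible factors, ACGTG or GCGTG on either strand. The window was the 250 bases before the start of transcription (RefSeq, GRCh38.p14). Only 24 of the 34 members had an entry, and ITGB2 and ITGB4, which rose, and ITGB3, which fell, had none. Such a core was present in 43.2% of all 35116 promoters of the table, in 10 of the 31 promoters of member genes (32.3%), and before at least 1 start in 2 of the 4 genes that rose and have an entry, ITGA5 and ITGB5. A gene with several starts has more windows to match. LAMA4 and LAMA5 held none in this window. Of the genes that fell and have an entry, ITGA4 held 1 and ITGAE none. The ITGA5 promoter had 1, on the reverse strand, and ITGB5, with 3 starts, had none, 3 and 1 before them. The windows of the 4 genes that rose and have an entry are shown so that those with and without a core can be compared. For ITGB5 it is the window with 3. The core is in capitals, and the gene's own strand is given 5′ to 3′.
ITGA5 (chr12:54419267-54419516, minus strand): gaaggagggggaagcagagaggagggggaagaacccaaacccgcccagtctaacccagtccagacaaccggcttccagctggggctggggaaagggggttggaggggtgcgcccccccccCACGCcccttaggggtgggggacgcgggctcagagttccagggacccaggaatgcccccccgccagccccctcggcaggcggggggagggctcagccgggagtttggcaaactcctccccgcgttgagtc
ITGB5 (chr3:124887685-124887934, minus strand): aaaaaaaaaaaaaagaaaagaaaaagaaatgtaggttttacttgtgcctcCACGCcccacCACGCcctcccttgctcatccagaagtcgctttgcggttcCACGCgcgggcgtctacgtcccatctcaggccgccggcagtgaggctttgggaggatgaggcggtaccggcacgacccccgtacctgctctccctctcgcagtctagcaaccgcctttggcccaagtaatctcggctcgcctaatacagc
LAMA4 (chr6:112254568-112254817, minus strand): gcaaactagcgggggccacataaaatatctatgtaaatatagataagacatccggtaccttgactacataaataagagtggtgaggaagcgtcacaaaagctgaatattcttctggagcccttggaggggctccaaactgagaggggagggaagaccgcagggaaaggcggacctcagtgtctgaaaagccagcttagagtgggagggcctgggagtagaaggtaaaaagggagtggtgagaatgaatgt
LAMA5 (chr20:62367313-62367562, minus strand): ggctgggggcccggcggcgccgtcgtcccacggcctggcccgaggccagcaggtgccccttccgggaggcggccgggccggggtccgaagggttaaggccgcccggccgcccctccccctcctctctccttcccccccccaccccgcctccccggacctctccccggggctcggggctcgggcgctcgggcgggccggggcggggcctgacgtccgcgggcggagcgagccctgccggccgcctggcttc
A match of these letters describes the sequence and does not show binding.

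Genes that act with these receptors were counted in 3 lists. Of 22 measured basement membrane and ligand genes, 2 rose and 0 fell at 6 h, 3 and 0 at 12 h, and 4 and 1 at 24 h. These are 9.09%, 13.6% and 22.7% of the list, against 3.54%, 18.4% and 17.7% of all genes. The median change at 24 h was 0.08, beside -0.01 for all genes. COL15A1, a collagen of the muscle basement membrane zone, had 8.24 and 8.13 at 24 h against 7.26 and 7.28 at 0 h, a rise of 0.92 ± 0.12 (adjusted p = 0.00256). NID1, which encodes the nidogen that links laminin to collagen, rose by 0.52 ± 0.10 at 6 h (adjusted p = 0.0346) and 0.45 ± 0.10 at 24 h (0.0203), AGRN, of the laminin-binding proteoglycan agrin, by 0.34 ± 0.06 at 24 h (0.00965), and the RGD ligand gene SPP1, in the dimmest 25%, fell by 0.51 ± 0.13 (0.0337). The fibronectin gene FN1, ligand of the ITGA5 receptor, was at 0.15 (adjusted p = 0.178).

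Of 25 measured genes of integrin activation and adhesion adaptors, 0 rose and 1 fell at 6 h, 2 and 6 at 12 h, and 3 and 4 at 24 h, with a median change of -0.06 at 24 h beside -0.01 for all genes. These are 4%, 32% and 28% of the list, against 3.54%, 18.4% and 17.7% of all genes, and those lower were 24% at 12 h and 16% at 24 h, against 11.3% and 9.15%. TNS1, which encodes a tensin that binds beta chain tails and actin, rose by 0.68 ± 0.08 at 12 h and 0.78 ± 0.08 at 24 h (adjusted p = 0.00231 and 0.000998). ZYX, the zyxin gene of focal adhesions and stress fibres, had 8.15 and 8.14 at 24 h against 8.75 and 8.70 at 0 h and fell by 0.48, 0.65 and 0.58 at 6, 12 and 24 h (adjusted p = 0.00421, 0.000474 and 0.000589). FERMT1, a kindlin that activates integrins, fell by 0.48 and RSU1, of the complex around integrin-linked kinase, by 0.39 at 24 h (adjusted p = 0.00611 and 0.0179). The talin gene TLN1 (-0.14) and the focal adhesion kinase gene PTK2 (-0.06) were not called.

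Of 18 measured genes of other laminin receptors and integrin partners, 1 rose and 0 fell at 6 h, 2 and 2 at 12 h, and 2 and 0 at 24 h, with a median change of 0.05 at 24 h beside -0.01 for all genes. These are 5.56%, 22.2% and 11.1% of the list, against 3.54%, 18.4% and 17.7% of all genes, so the share at 24 h lies below that of all genes. Both that rose at 24 h encode tetraspanins, membrane proteins that associate with integrins. CD9 had 10.62 and 10.61 at 0 h, 11.09 and 11.11 at 6 h, 11.37 and 11.34 at 12 h and 11.57 and 11.63 at 24 h, every hypoxic time above the one before it. Its rises over 0 h were 0.49 ± 0.05, 0.74 ± 0.05 and 0.99 ± 0.05 at the 3 times (adjusted p = 0.00323, 0.000191 and 3.07e-05), and from 6 to 24 h it rose by 0.50 ± 0.05 (adjusted p = 0.00543). CD81 rose by 0.39 ± 0.06 at 24 h (adjusted p = 0.0043), while the dystrophin gene DMD (-0.16) and the tetraspanin gene CD151 (-0.10), which associates with laminin receptors, were not called.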

How the data were processed

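SJRH30 cells at 4 times (2 arrays each) were measured on a 3′-based Affymetrix array. The authors deposited log2 values, 1 per probe set, made with RMA, per the submitters' processing notes (version not given in the sources used here). RMA usually equalises the distribution of values between arrays, so changes are relative to other transcripts. Array medians lay between 6.69 and 6.73. The number of arrays limits precision.

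Symbols came from the platform annotation (19064 probe sets with 1 symbol, 1043 with several, 2164 not listed), checked through Entrez identifiers; member symbols needed no update. Each of 11963 genes was its brightest probe set, with no filter on dim genes. limma 3.58.1 in R 4.3.3 fitted time means to all 8 arrays (4 residual degrees of freedom plus 3.68 from the prior; two-sided; adjusted p under 0.05), and again over all 22215 probe sets that are not controls. The 62 control probe sets were left out. Intervals are 95%. The procedure was tested on simulated data.

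All members are named by rule, with array values for those called; pathway genes are up to 4 called per list with the largest change at 24 h, plus a few uncalled ones chosen after their values were seen. Members and lists were chosen with earlier results of these data known. Alternatives were an intensity trend, leaving out the dimmer 50% of genes, other scalings, probe set means, a replicate block, fits of 2 times and of all but 1 array and, chosen after seeing the data, leaving out both 12 h arrays. Deviations of same-numbered arrays from their time means correlated at -0.11 to 0.09 over genes, which shows no strong effect shared by a number. These correlations cannot tell whether same-numbered cultures were handled together.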

Additional observations from a re-analysis of the deposited data

How the results depend on the processing

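The 24 calls of a member in a comparison between times were recomputed under 16 alternatives, which gave 372 values. None changed sign, and 302 kept their side of the threshold, the other 70 losing the call. The counts of members called at 6, 12 and 24 h against 0 h (4, 7 and 9) stayed within 1.5 times under all alternatives other than those that leave out 1 array; the replicate block gave 3, 8 and 9. Leaving out 1 array gave 0 to 4, 4 to 9 and 4 to 10, and between times 1 to 3 from 6 to 24 h (2 with all arrays), 0 to 2 from 6 to 12 h (1) and 0 to 1 from 12 to 24 h (1). From 6 to 24 h, 7 members were called with an intensity trend, 5 without the dimmer 50% of genes, 4 with probe set means and 1 with the replicate block. From 6 to 12 h, 3 were called with the trend, 4 without the dimmer 50%, and 0 with the replicate block or with only the 2 times fitted. From 12 to 24 h, 0 were called with arrays centred on their medians, further quantile normalization, the replicate block or only the 2 times fitted. Shares of all genes called under these alternatives, with those that leave out 1 array, are not given here. The member counts therefore show how calls depend on the setting and are no result about the members. ITGB5 at 6 h lost its call after further quantile normalization, with the block, with 2 times fitted and without both 12 h arrays (adjusted p from 0.0544 to 0.0806). LAMA5 lost its call at 12 h with only 2 times fitted (0.0883) and from 6 to 24 h with the block (0.0711). Over all genes the 12 h calls were 853 higher and 1349 lower, but 1020 and 1083 with arrays centred on their medians. The causes were not tested.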
